A study of Arabidopsis thaliana with 12 samples.

Results

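Transcripts of 3 enzymes of the chloroplast stroma that thioredoxin switches on in the light were followed, namely those of phosphoribulokinase (PRK, AT1G32060), sedoheptulose-bisphosphatase (SBPASE, AT3G55800) and the NADP-dependent malate dehydrogenase (AT5G58330, NADP-MDH below). They were chosen by function, as the features that the platform table pairs with that gene alone, and each had 1 such feature among the 692 with 1 gene and the 3439 measured in all. The samples were 12 arrays of Arabidopsis thaliana, ecotype Landsberg, all after 12 h in the dark. Of these, 6 were from the flu mutant, which is affected in FLU, a regulator of chlorophyll synthesis, and 6 from the wild type (WT). The allele, the plants' age, the tissue and the array's design are not given in the labels, nor whether arrays came from separate plants, so p-values measure the spread between these arrays, which may be technical. None of the listed root and seed markers was measured by a feature of its own, so the tissue could not be checked. FLU itself was listed by no feature and could not serve as a check of the labels.

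Light drives electrons from photosystem I to ferredoxin, and ferredoxin-thioredoxin reductase passes them on to the plastid thioredoxins, which break disulfide bonds in their target enzymes. PRK makes ribulose bisphosphate, the acceptor of carbon dioxide, and SBPASE acts before it in the regeneration phase of the Calvin-Benson cycle. NADP-MDH reduces oxaloacetate to malate, which carries reducing power out of the chloroplast. In darkness these enzymes are oxidised and largely inactive, a control of the protein that transcript levels do not report. The flu mutant is known for building up protochlorophyllide in the dark.

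Values are the deposited intensities, linear numbers from 0 to an upper limit of about 100 whose scaling is not given. Array medians were 0.426 to 0.442 in flu and 0.443 to 0.491 in WT, and all 3 transcripts lay above the floor used for dim features (0.0236) on 12 of 12 arrays. Arrays 1 and 2, 3 and 4, and 5 and 6 of a genotype, called couples here, were alike in pairs (Spearman correlations of 0.909 to 0.967 within couples and 0.780 to 0.942 between those of a genotype), although the labels do not name such pairs. Changes are therefore given on the normalised log2 scale from limma over 12 arrays, over 3 couple means per genotype, and over couple means after strips of feature numbers with a shared shift were centred. A transcript is said here to have risen or fallen where it passed an adjusted p of 0.05 in these 3 analyses with 1 sign.

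The estimated changes of the 3 transcripts did not share 1 direction. NADP-MDH was 2.28 times as high in flu as in WT by the deposited means, PRK 0.55 times and SBPASE 1.14 times. In such bulk RNA fewer cells of a type and less RNA per cell cannot be told apart. Over 12 arrays 2 of the 3 passed, NADP-MDH as higher and PRK as lower, where 52.2% of all features passed (23% as higher and 29.2% as lower). With couples averaged limma passed 0 of the 3 (1, NADP-MDH, at an unadjusted p below 0.05), against 34.7% of all features, and with strips centred too 2 of the 3 passed, NADP-MDH and SBPASE, both as higher, against 27.8% of all features in either direction and 13.6% as higher. None passed in all 3 analyses, which 19.3% of all features did, so none is called risen or fallen by these fits without a block. Same-numbered flu and WT arrays deviated together across the features, and taking them as pairs, with the number as a block, changes that verdict for NADP-MDH. With the block, NADP-MDH passed as higher in all 3 analyses (limma adjusted p = 0.00272 over 12 arrays, 0.0448 on couple means and 0.0167 on couple means with strips centred), as 23.2% of all features did in 1 direction or the other. With the block 3 of the 3 transcripts passed over 12 arrays, against 57.2% of all features, 2 of the 3 (NADP-MDH and PRK) with couples averaged, against 38%, and 2 of the 3 (NADP-MDH and SBPASE) with strips centred too, against 34.2%.

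**Figure D1:**
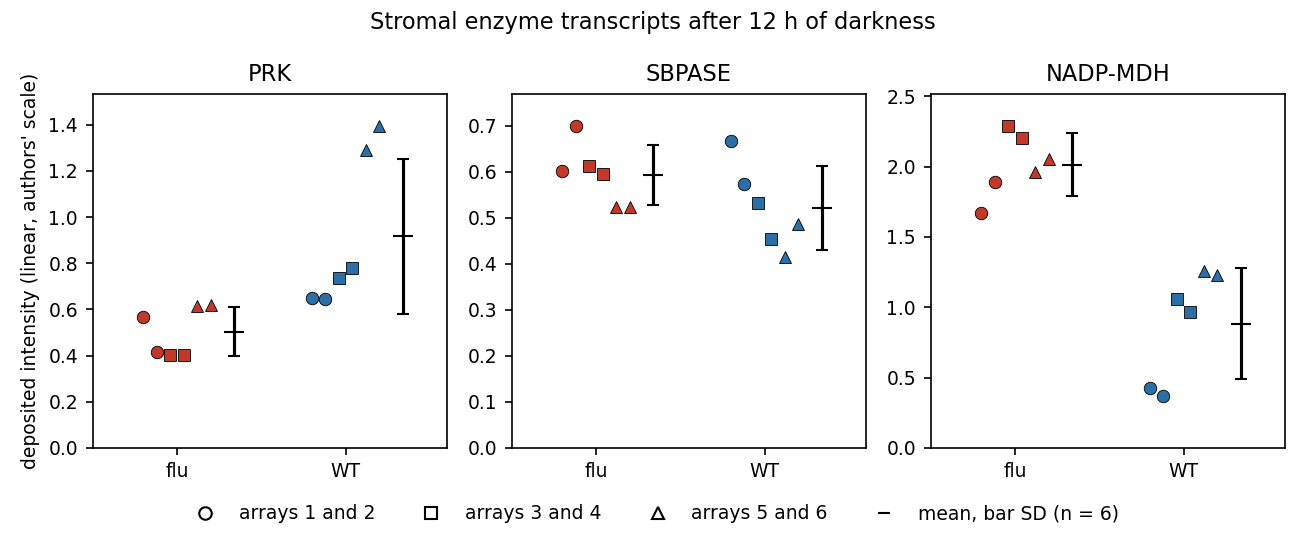
Deposited intensity (linear, authors' scale) of the 3 transcripts on each of 6 flu and 6 WT arrays. Marker shapes give the couples and bars the mean and SD over 6 arrays. The genotypes are apart for PRK (flu lower) and NADP-MDH (flu higher) and overlap for SBPASE.

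NADP-MDH had intensities of 1.67 to 2.29 in flu (median 2.01), against 0.368 to 1.26 in WT (median 1.01). All 6 flu arrays lay above all 6 WT arrays. Values of 37.1% of all features were likewise apart between the genotypes. The means were 2.01 ± 0.223 in flu and 0.884 ± 0.394 in WT (SD, n = 6 each), and the spread in WT came mostly from between couples, whose means were 0.395, 1.01 and 1.24, while the flu couples stood at 1.78, 2.25 and 2.01. Arrays of a couple differed by at most 1.15 times in WT, and the highest WT couple was 3.15 times the lowest.

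The log2 change of NADP-MDH was 1.40 (95% interval 0.72 to 2.08, limma adjusted p = 0.00266 over 12 arrays). With couples averaged the interval widened to 0.26 to 2.54 and the adjusted p was 0.0641. With the pairing as a block the couple means gave an interval of 0.46 to 2.34 and passed. With strips centred the couple means gave a change of 1.14 (0.41 to 1.87, adjusted p = 0.0346). Its size differed between couples. Flu minus WT was 2.16 in the first couple, 1.26 in the second and 0.78 in the third, all in 1 direction. Leaving out WT arrays 1 and 2, the lowest, gave a change of 0.90 (limma adjusted p = 0.000245).

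PRK had intensities of 0.403 to 0.619 in flu (median 0.491), against 0.644 to 1.40 in WT (median 0.756). On deposited values the genotypes did not overlap here either, as for 37.1% of all features. Flu was the lower, but the gap between the highest flu and the lowest WT array was narrow. On the normalised log2 scale the genotypes did overlap, with flu array 6 at -0.636 and WT array 2 at -0.642. With strips centred, flu arrays 5 and 6 (-0.477 and -0.375) lay above WT arrays 1 and 2 (-0.879 and -0.876). Means were 0.503 ± 0.107 in flu and 0.916 ± 0.337 in WT (SD, n = 6 each). WT arrays 5 and 6 stood well above the other WT arrays, with a couple mean of 1.34 against 0.647 and 0.756, and the flu couples had means of 0.491, 0.403 and 0.616.

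The log2 change of PRK was -0.73 (-1.23 to -0.24, limma adjusted p = 0.0173 over 12 arrays), and flu was below WT in 6 of 6 same-numbered pairs. With couples averaged the interval was -1.55 to 0.08 (adjusted p = 0.141), or -1.24 to -0.23 with the pairing as a block (0.0468). With strips centred too it was -0.38 (-1.10 to 0.34, adjusted p = 0.383). The differences by couple were -0.38, -0.80 and -1.02. Without WT arrays 5 and 6 the change was -0.43 and no longer passed (limma adjusted p = 0.0513), and it also missed the threshold without flu arrays 1 and 2 (-0.71, 0.0549) or flu arrays 3 and 4 (-0.58, 0.0950).

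SBPASE had intensities of 0.523 to 0.701 in flu (median 0.599), against 0.415 to 0.668 in WT (median 0.510). The genotypes overlapped, and 1 flu array lay above all WT arrays while 3 WT arrays lay below all flu arrays. Means were 0.593 ± 0.0660 in flu and 0.522 ± 0.0905 in WT (SD, n = 6 each). In both genotypes the first couple was the highest and the third the lowest, at 0.652 and 0.524 in flu and at 0.620 and 0.451 in WT.

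The log2 change of SBPASE was 0.30 (0.01 to 0.58), which did not pass over 12 arrays (limma adjusted p = 0.0808) but did with the pairing as a block (0.0432), as 25.5% of all features did as higher, with flu above WT in 5 of 6 pairs. With couples averaged the interval ran from -0.15 to 0.74 (adjusted p = 0.255), and with the pairing as a block from -0.07 to 0.66 (0.148), so the call gained over 12 arrays with the block was not made on couple means. Values on both sides of 0 lay inside both intervals. With strips centred too the change was 0.84 (0.44 to 1.24, adjusted p = 0.0142). It also passed over 12 arrays without WT array 1 (0.39, limma adjusted p = 0.0134) and without WT arrays 1 and 2 (0.46, 0.0037).

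**Figure D2:**
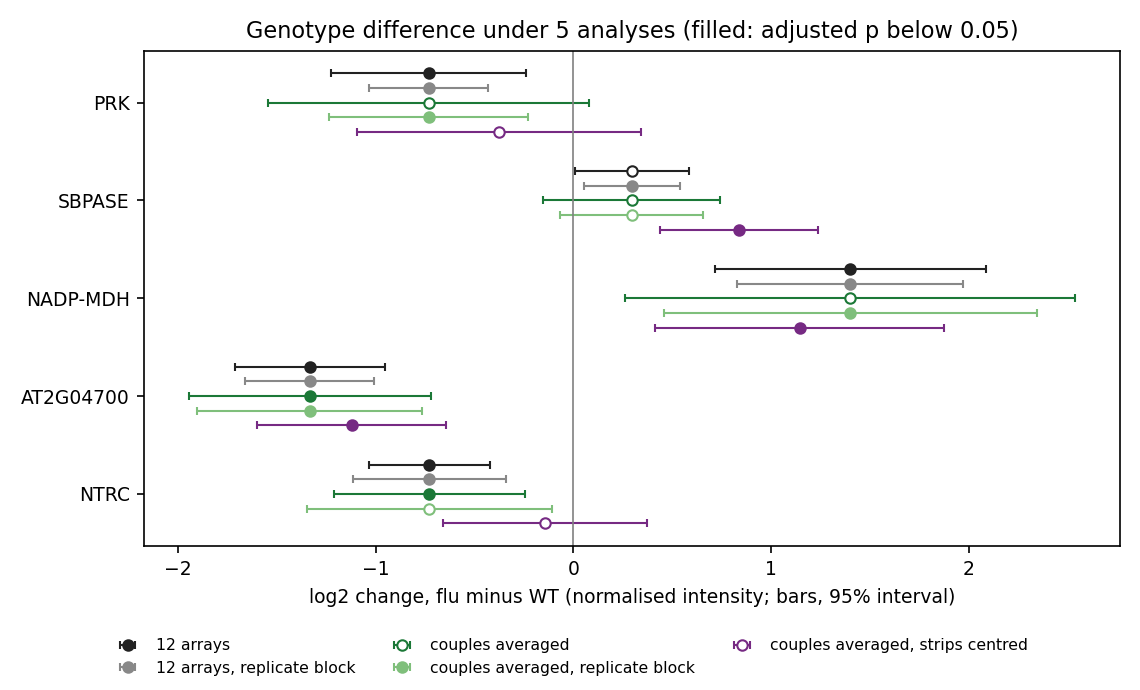
Log2 change, flu minus WT, of the 3 enzymes and of 2 thioredoxin reductase transcripts under 5 analyses, with 95% intervals from limma. Filled points passed an adjusted p of 0.05. NADP-MDH lies at 1.14 to 1.40, PRK at -0.73 to -0.38, SBPASE at 0.30 to 0.84, AT2G04700 at -1.33 to -1.12 and NTRC at -0.73 to -0.14.

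The move of SBPASE with strips centred follows from where its feature lies in the numbering. Genotype differences recurred along the feature numbers in 48 strips of 6 numbers that repeat every 288 numbers. Features at the same place in each repeat form 1 strip, and strip means ran from -0.67 to 0.61 on the log2 scale. The 69 other features of the SBPASE strip had a median change of -0.63, and 43 of them passed as lower in flu and 5 as higher over 12 arrays. SBPASE at 0.30 lay above 58 of these 69. The 73 other features of the PRK strip had a median of -0.47, and PRK lay below 54 of them and above 19, close to their lower quartile of -0.74. The 69 others in the NADP-MDH strip had a median of 0.18, and NADP-MDH lay above 62 of them. Strip width and period were chosen earlier on these same changes, and what gave rise to the strips was not tested.

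**Figure D3:**
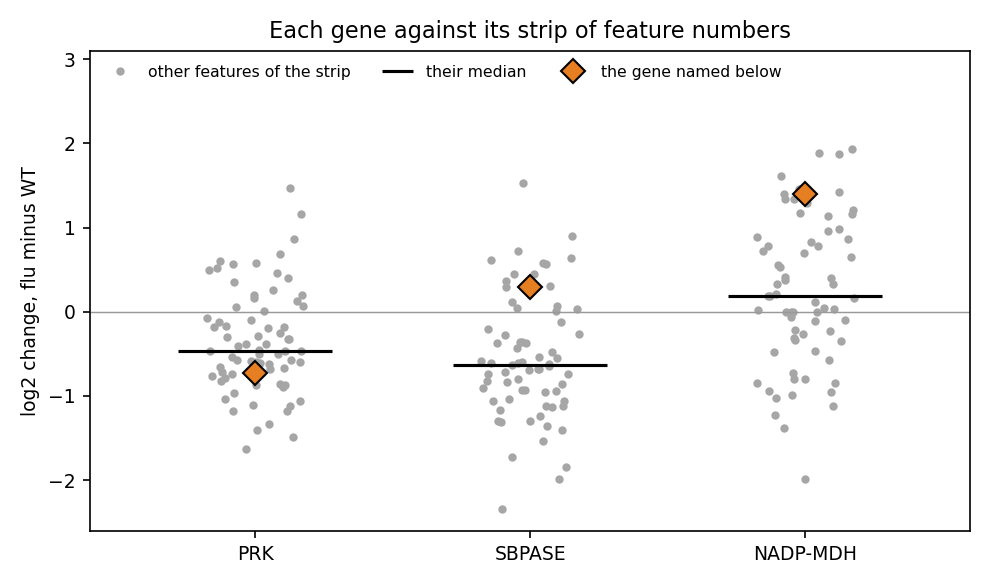
Log2 change, flu minus WT over 12 arrays, of PRK, SBPASE and NADP-MDH (diamonds) and of the other features in the same strip of feature numbers (grey points; line, their median). PRK sits below the median of a strip that is mostly lower in flu, near its lower quartile. SBPASE and NADP-MDH sit above the upper quartiles of theirs (-0.13 and 0.89), with 11 and 7 of the other features higher still.

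Whether the transcripts changed unequally was tested on their ratios within an array, in which any factor common to the array cancels. The size of a ratio between 2 features has no meaning here, and only its difference between genotypes is read. The log2 ratio of NADP-MDH over PRK was 1.57 to 2.51 on the 6 flu arrays, against -0.81 to 0.53 on the 6 WT arrays. The ranges did not overlap, and the ratio was 4.45 times as high in flu, a log2 difference of 2.15 (two-sided exact permutation p = 0.00216, the smallest that 6 against 6 arrays can give, and 0.00649 adjusted over the 3 pairs of transcripts). This was fixed in advance, because on deposited values NADP-MDH and PRK were each already apart between the genotypes, in opposite directions. The p therefore adds nothing to those values, and other pairs of features were not examined. The log2 difference was 1.56 with strips centred, where PRK overlapped between the genotypes and the exact p was again 0.00216. These permutations ignore the pairing of same-numbered arrays. With the 6 pairs kept, an exact sign-flip test gave p = 0.03125 for each of the 3 ratios, the smallest that it can give. For NADP-MDH over PRK this p was likewise fixed by the deposited values. The sign-flip test counts the 6 pairs as separate although arrays of a couple were alike, so it does not respect the couples.

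The ratio of SBPASE over PRK averaged 0.26 ± 0.44 in flu and -0.75 ± 0.70 in WT (SD, n = 6 each), a difference of 1.01 (exact permutation p = 0.0195, adjusted 0.0195), or 1.18 with strips centred (adjusted 0.00649). Its ranges overlapped, and WT arrays 5 and 6 had the lowest ratios. The ratio of NADP-MDH over SBPASE averaged 1.76 ± 0.24 in flu and 0.62 ± 1.0 in WT (n = 6 each), a difference of 1.14 (exact permutation p = 0.00866, adjusted 0.0130). WT arrays 1 and 2 lay far below the other WT arrays in this ratio, and with strips centred the difference was 0.39 and did not pass (exact p = 0.227). Over couple means, 3 against 3, no exact test can go below 0.1, and the p-values were 0.1 for NADP-MDH over PRK and 0.2 for the other pairs.

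**Figure D4:**
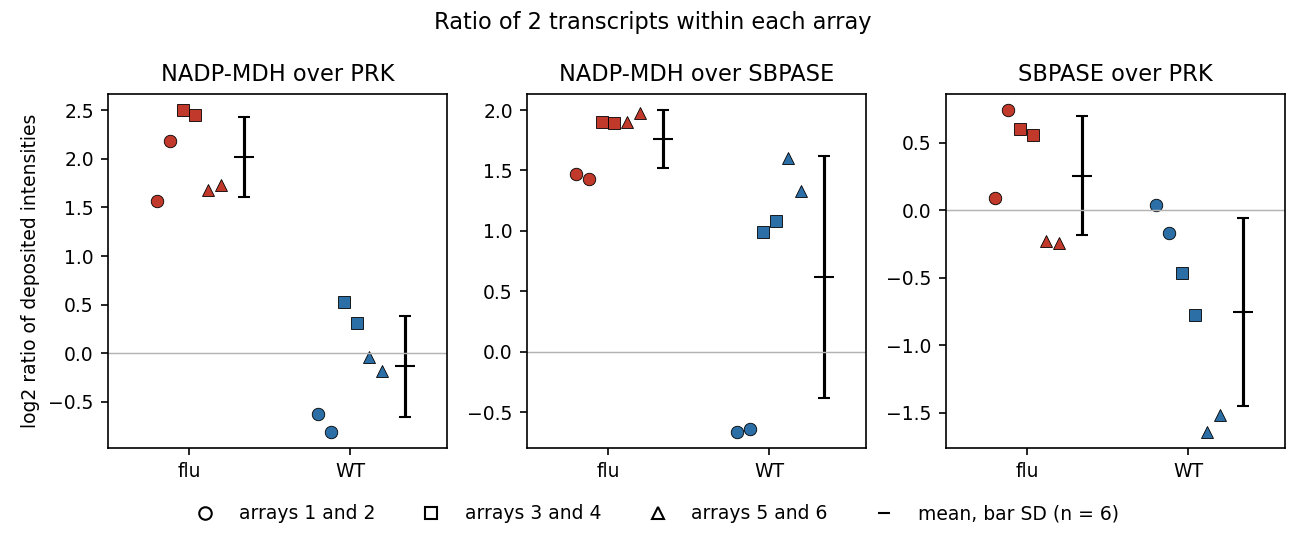
Log2 ratio of deposited intensities of 2 transcripts within each array, for 6 flu and 6 WT arrays, with mean and SD (n = 6). Marker shapes give the couples. The genotypes are apart for NADP-MDH over PRK alone, at 1.57 to 2.51 in flu and -0.81 to 0.53 in WT.

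Few relatives of these enzymes had a feature of their own. Of 25 listed Calvin-Benson genes, PRK and SBPASE were the 2 measured, and of 16 genes of malate and oxaloacetate metabolism and transport NADP-MDH was the 1 measured. Of 11 further plastid enzymes under thioredoxin control 0 had a feature of their own. Features that list such genes together with others were not used. There were 2 of these for the Calvin-Benson list, 1 for that of malate and oxaloacetate and 3 for the 11 further enzymes. The list of the plastid thioredoxin system, with 17 genes, had 2 measured members, both of them reductases. Both were lower over 12 arrays and with couples averaged, against 29.2% and 20.2% of all features, and 1 of the 2 with strips centred too, against 14.2%. Their median log2 change was -1.03, and that of all features -0.04.

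AT2G04700, which the RefSeq table gives without a name, was put on that list as the catalytic subunit of ferredoxin-thioredoxin reductase, the enzyme that links thioredoxin reduction to light. Its intensities were 0.174 to 0.227 in flu (median 0.213), against 0.467 to 0.851 in WT (median 0.593). The genotypes did not overlap, as for 37.1% of all features. It fell in all 3 analyses, which 10.2% of all features did, with a log2 change of -1.33 (-1.71 to -0.95, limma adjusted p = 6.02e-05) over 12 arrays, an adjusted p of 0.0127 with couples averaged (0.0213 with the pairing as a block) and a change of -1.12 (0.0104) with strips centred too. The deposited mean in flu was 0.335 times that in WT, and with any array or couple left out the change stayed between -1.59 and -1.12.

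NTRC (AT2G41680), a plastid NADPH-dependent reductase with a thioredoxin domain of its own that can work without light, had intensities of 0.304 to 0.458 in flu (median 0.404), against 0.521 to 0.859 in WT (median 0.752). On deposited values all flu arrays lay below all WT arrays, where 37.1% of all features were apart in either direction. With strips centred the genotypes overlapped, with WT arrays 1 and 2 at -1.23 and -1.25 and flu array 1 at -0.81. The log2 change of NTRC was -0.73 (limma adjusted p = 0.00103) over 12 arrays, with an adjusted p of 0.0367 with couples averaged, or 0.0723 with the pairing as a block. With strips centred too it was -0.14 (adjusted p = 0.651). The 63 other features of its strip had a median of -0.67, so NTRC lay within its strip.

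**Figure D5:**
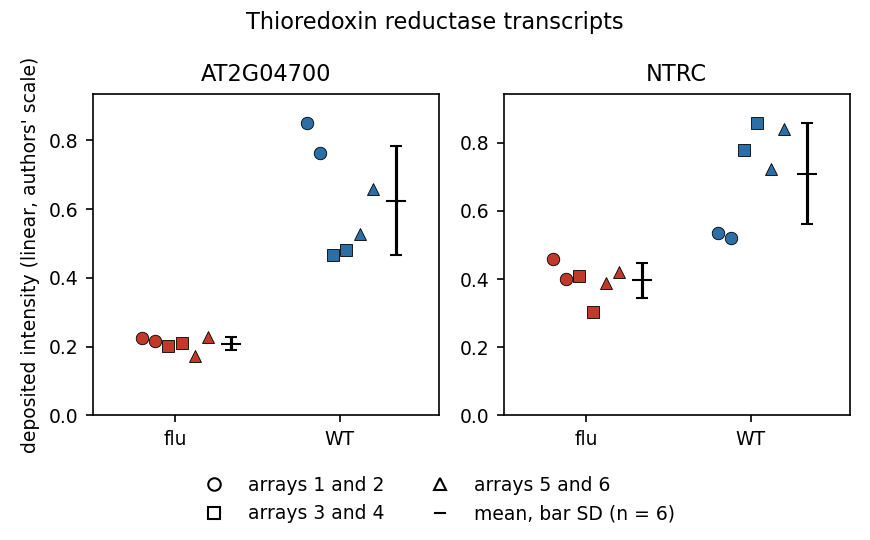
Deposited intensity (linear, authors' scale) of AT2G04700 and NTRC on each of 6 flu and 6 WT arrays, with mean and SD (n = 6). Marker shapes give the couples. All flu arrays lie below all WT arrays for both transcripts.

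The genes whose profile over the 12 arrays was most like that of each enzyme were looked for among the 606 other features with 1 gene that were above the floor throughout. Correlations are given as a description, since arrays share couples and genotype. NADP-MDH was most like AT3G61870 (Pearson r = 0.990, and 0.979 after each genotype's mean was subtracted), then AT5G61470 (0.948 and 0.846) and AT5G40030 (0.944 and 0.951). PRK was most like AT4G38020 (0.906 and 0.815), CSLA01 (0.876 and 0.752), a cellulose synthase-like gene, and AT4G30740 (0.857 and 0.864). SBPASE was most like AT3G57440 (0.880 and 0.820), AT3G16310 (0.878 and 0.824) and AT3G17950 (0.866 and 0.798). By the correlation within genotypes these 3 ranked 10, 8 and 17 for SBPASE, where the highest value was 0.928. AT5G61470 ranked 29 in this way for NADP-MDH, while AT3G61870 and, for PRK, AT4G30740 ranked 1. None of the 9 shared a strip with the enzyme it resembled, though AT5G61470 lay in the strip next to that of NADP-MDH (19 and 18). CSLA01 and AT4G30740 both lay in the strip of NTRC, whose other features had a median change of -0.67. Their log2 changes were -0.77 and -1.40 over 12 arrays, and -0.19 and -0.81 on couple means with strips centred. Whether strip shifts contribute to the likeness was not tested. Among the enzymes themselves, SBPASE ran against PRK (-0.74, and -0.58 within genotypes), and NADP-MDH against SBPASE within genotypes (-0.74, but 0.10 over all 12 arrays). PRK and NADP-MDH correlated at 0.55 within genotypes and at -0.33 over the 12 arrays.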

How the data were processed

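The deposited table held a linear intensity per feature and array. How the authors scanned, background-corrected and scaled the arrays is not stated in the labels. Of 3439 features the platform table listed 1562, 692 of them with 1 gene, 870 with several (not named). Names came from RefSeq (TAIR10.1), matched for 690.

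Intensities were floored at the 1st percentile of the positive values (0.0236), put on a log2 scale and quantile normalised. The planned test was limma 3.58.1 in R 4.3.3, flu minus WT over 12 arrays and all features, two-sided, Benjamini-Hochberg adjusted. Couples (n = 3 per genotype) and strip centring (each strip's mean deviation subtracted per array) followed earlier work on these data. Same-numbered arrays were checked for pairing. Deviations from group means correlated at 0.368 to 0.539, and at most 0.261 for other numbers, so the numbers were taken as pairs. Ratios were tested by exact permutation of 924 assignments and, with the pairing kept, by exact sign flips of the paired differences. Fits over 12 arrays and over couple means were tried on simulated data with few changed features and neither strips nor pairing. Those simulations therefore do not show how the fits behave on these data.

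The members, lists, tests and alternatives were chosen with earlier results of these data known. Named were the enzymes, measured list genes and 3 most correlated genes per enzyme. Alternatives covered normalisation, floor (an offset of 0.1), dim features, array weights, pairing, couples, strips and left-out arrays.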

Additional observations from a re-analysis of the deposited data

Results flagged for a closer look

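Among 34 groups of 6 arrays, from the enzymes, the reductases, the correlated genes and the ratios, 1 held a single array far from the other 5, where chance gives about 1 in 20. NTRC stood at -1.64 on the normalised log2 scale in flu array 4, against -1.26 to -1.09 in the other flu arrays.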

How the results depend on the processing

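Over 12 arrays, the changes of PRK, SBPASE and NADP-MDH kept their signs under all alternatives run, as did the 3 ratios. PRK at -0.73 lost the threshold with couples averaged (-0.73), and at -0.38 with strips centred, with or without couples averaged and with the replicate block added. SBPASE at 0.30 gained it with array weights (0.36), with the replicate block (0.30) and, at 0.84, with strips centred, with couples averaged too and with the block added. NADP-MDH lost it with couples averaged (1.40), where 3 means per genotype remain. The ratios of 2.15, 1.14 and 1.01 could not pass with couples averaged (2.15, 1.14 and 1.01), as 3 against 3 cannot, and NADP-MDH over SBPASE lost the threshold with strips centred (0.39). The cause of the other moves was not tested. The replicate block changed no other call of the enzymes or reductases over 12 arrays.

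With arrays or couples left out, PRK ran from -0.92 to -0.43, SBPASE from 0.20 to 0.46 and NADP-MDH from 0.90 to 1.73. With single arrays left out the ratios ran from 2.02 to 2.29 (NADP-MDH over PRK), 0.89 to 1.34 (NADP-MDH over SBPASE) and 0.83 to 1.17 (SBPASE over PRK). The alternatives for AT2G04700 and NTRC were added after the data were seen. AT2G04700 kept its call in all that included it, and the filter on dim features left it out. NTRC lost its call with strips centred (3 alternatives) and with couples averaged and the block. The median of all features was -0.04 after normalisation and -0.20 as deposited. Relative to it PRK stood at -0.70 and -0.62, SBPASE at 0.33 and 0.39 and NADP-MDH at 1.44 and 1.54. The 1796 of 3439 features passing became 1089 of the 1719 above the median intensity and 339 of the 692 with 1 gene. Over all features they became 1193 with couples averaged, 956 with strips centred too and 1177 with the block added. With arrays or couples left out they were 1542 to 1875. Signal over background was not analysed here.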
